A study of Rattus norvegicus with 12 samples.

Results

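The heat shock chaperones followed here are the transcription factor Hsf1, the cytosolic Hsp70 system (Hspa1b, Hspa8, Dnajb1, Hsph1), the cytosolic Hsp90 pair (Hsp90aa1, Hsp90ab1), the small heat shock protein Hspb1 and the mitochondrial chaperonin (Hspd1, Hspe1). Members were every probe set whose symbol in the platform annotation was one of these 10 genes. Of 31042 probe sets that were not controls, 14 carried a listed symbol. In 10 of them, from 7 genes, it was the only symbol, and these 10 are the ones counted. In the other 4 probe sets the symbol stood beside that of another gene: Hspa1b beside Hspa1a, Hspa8 beside Haus8l2, and Hsp90aa1 beside Hsp90aa1-ps17 on a pair of probe sets. Their values are given, but they cannot be tied to 1 gene and are left out of the counts over 10. Counts over 14, on the spread between animals, include them. No probe set carried Hspa1b, Hspa8 or Hsp90aa1 alone.

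The samples were hepatocytes of rats labelled as strain Fischer 334, released from the liver by collagenase perfusion and lysed for RNA without culture. There were 4 groups of 3 donor animals: heart-beating donors as controls, and donors that had been dead for 4, 16 or 30 h. The design asked how hepatocyte transcripts depend on the interval after death. Each animal gave 1 Affymetrix array, so n = 3 per group throughout, and a value is a log2 signal on which a difference of 1 is a 2-fold change.

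Heat shock proteins keep other proteins folded. Hsf1 is held inactive by chaperones in unstressed cells, and when misfolded protein occupies those chaperones it binds heat shock elements, short inverted repeats of GAA, and raises the transcription of chaperone genes. Hsp70 proteins bind exposed hydrophobic stretches in cycles of ATP hydrolysis that J proteins such as Dnajb1 start and exchange factors such as Hsph1 end. Hsp90 finishes the folding of receptors and kinases, Hspb1 holds unfolding proteins without ATP, and Hspd1 (Hsp60) with its lid Hspe1 (Hsp10) forms the folding chamber of the mitochondrial matrix.

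The promoters of the chaperones whose values the results turn on are shown because heat shock elements are the sequences that Hsf1 binds. The set of promoters used here (rat assembly GRCr8) had an entry for 7 of the 10 genes, each running from 250 bases before to 50 after the start site. It had none for Hsf1, Hspa1b or Hsp90aa1, so the promoter counts do not cover these genes. Capitals mark every match to the inverted repeats GAANNTTC and TTCNNGAA, which read the same on both strands, and matches may overlap. The windows were chr9:64083988-64084287 on the minus strand for Hspd1, chr9:64084077-64084376 on the plus strand for Hspe1, chr8:50080264-50080563 on the plus strand for Hspa8, chr12:10427118-10427417 on the plus strand for Hsph1 and chr19:41431092-41431391 on the minus strand for Dnajb1.
Hspd1: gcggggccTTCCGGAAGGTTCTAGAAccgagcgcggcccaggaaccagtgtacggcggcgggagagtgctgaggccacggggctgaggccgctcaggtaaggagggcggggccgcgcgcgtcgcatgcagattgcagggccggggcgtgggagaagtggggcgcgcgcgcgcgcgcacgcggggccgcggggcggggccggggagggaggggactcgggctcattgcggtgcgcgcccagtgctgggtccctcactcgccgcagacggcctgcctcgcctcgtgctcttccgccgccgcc
Hspe1: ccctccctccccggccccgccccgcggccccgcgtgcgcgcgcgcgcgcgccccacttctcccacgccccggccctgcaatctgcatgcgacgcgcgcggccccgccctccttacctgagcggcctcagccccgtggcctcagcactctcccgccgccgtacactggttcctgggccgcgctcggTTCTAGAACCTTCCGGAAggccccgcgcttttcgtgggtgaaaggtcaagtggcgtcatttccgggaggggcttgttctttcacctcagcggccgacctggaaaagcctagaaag
Hspa8: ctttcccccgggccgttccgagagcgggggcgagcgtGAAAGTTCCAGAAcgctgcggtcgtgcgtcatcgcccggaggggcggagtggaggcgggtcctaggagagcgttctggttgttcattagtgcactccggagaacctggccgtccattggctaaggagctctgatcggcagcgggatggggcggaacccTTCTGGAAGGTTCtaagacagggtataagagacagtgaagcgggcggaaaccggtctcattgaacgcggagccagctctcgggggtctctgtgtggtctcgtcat
Hsph1: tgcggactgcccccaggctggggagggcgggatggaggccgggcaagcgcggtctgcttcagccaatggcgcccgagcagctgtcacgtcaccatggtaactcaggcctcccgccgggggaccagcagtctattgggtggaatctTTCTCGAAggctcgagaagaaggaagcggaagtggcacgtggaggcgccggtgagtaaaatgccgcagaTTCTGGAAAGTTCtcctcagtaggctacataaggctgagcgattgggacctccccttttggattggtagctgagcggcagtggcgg
Dnajb1: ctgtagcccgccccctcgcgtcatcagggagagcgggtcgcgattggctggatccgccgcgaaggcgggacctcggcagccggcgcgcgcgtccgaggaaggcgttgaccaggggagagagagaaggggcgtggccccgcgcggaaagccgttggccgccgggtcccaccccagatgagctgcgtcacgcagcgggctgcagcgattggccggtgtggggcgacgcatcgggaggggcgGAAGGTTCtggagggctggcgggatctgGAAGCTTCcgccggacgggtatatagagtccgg

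A repeat of 2 units (GAANNTTC or TTCNNGAA) was present in 6 of the 7 promoters, against 15.9% of all 33469 promoters in the table. The 3-unit form, in which GAA and TTC alternate with 2 bases between units, was searched on both strands and was present in 4 of the 7, those of Hspa8, Hspd1, Hspe1 and Hsph1, against 0.798% of all. Hspa8 held it at 2 places, from -213 to -201 and from -55 to -43 relative to the start. Hsph1 held it from -36 to -24. Dnajb1 had only 2-unit matches, from -11 to -4 and from 18 to 25, and Hspb1 (chr12:26432252-26432551) had 2-unit matches that begin at -129 and -109. The window of Hsp90ab1 (chr9:22930173-22930472) held none of these letters. Hspd1 and Hspe1 lie head to head on chromosome 9: their windows share 211 bases, and the capitals in both are the same stretch, chr9:64084262-64084279, read from opposite strands. It lies from -65 to -48 for Hspe1 and from -242 to -225 for the Hspd1 start of the table, although the RefSeq gene Hspd1 extends past that start to position 64084332.

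Median log2 signals of the arrays ran from 5.83 to 5.90. RMA normalizes arrays to a common distribution, so these medians do not measure how alike the samples were. Animals of a group correlated at 0.9913 to 0.9969 over all probe sets. Hepatocyte markers were strong, with a list mean of 12.28 to 12.35 in heart-beating donors and 11.92 to 12.10 at 30 h. There 3 of 11 were lower and 1 higher, where 10.5% of all genes were lower and 12.5% higher. RNA integrity differed between groups. The log2 signal of the 3' Gapdh control minus that of the 5' control was 0.39 ± 0.08 (SD) with a beating heart. It was 0.38 ± 0.10 at 4 h, 1.05 ± 0.20 at 16 h and 1.97 ± 0.29 at 30 h, with no overlap of heart-beating donors with 16 or 30 h (exact two-sided permutation p = 0.1 each, the smallest that 3 against 3 allows). The same difference for beta-actin overlapped the heart-beating donors at 16 h (1.89 to 2.54 against 1.80 to 1.90, exact p = 0.2) and not at 30 h (2.75 to 2.95, exact p = 0.1). Markers of other cells differed too. Of the Kupffer cell markers, 7 of 10 were lower at 30 h (list mean 7.55 to 7.89, against 8.40 to 8.50). Of the erythroid markers 4 of 5 were higher (9.21 to 9.90 against 8.09 to 8.24), and of the stellate cell markers 5 of 10 (7.72 to 8.07 against 7.27 to 7.66). Already at 16 h 5 of 10 Kupffer cell markers were lower, and 3 of 5 erythroid and 3 of 8 endothelial markers higher. Of the stellate cell markers 2 of 10 were higher and 1 lower at that time. The shares of all genes at 16 h were 4.3% higher and 1.3% lower. The part of RNA integrity and of other cells in the results below was not tested, beyond the covariate fit given for the 30 h calls. In cell populations such as these, fewer cells of a type and less RNA per cell cannot be told apart.

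At 4 h no chaperone probe set passed the test. None of the 10 was called (limma, Benjamini-Hochberg adjusted p under 0.05 over all probe sets), where 0.0226% of all probe sets passed, and none had an unadjusted p under 0.05 (5.27% of all probe sets did). Their log2 differences from heart-beating donors ran from -0.28 to 0.10 with a median of -0.07, against 0.00 over all probe sets. At 16 h again none of the 10 passed (background 4.67%), with 3 at an unadjusted p under 0.05 (19.1% of all), and the median was -0.23 against -0.02 over all. At 30 h Hsf1 rose, and Hspd1 and 1 of the 2 probe sets of Dnajb1 fell: 3 of the 10 passed, against 19.7% of all probe sets, which is 1 higher (background 10.4%) and 2 lower (background 9.36%). The median at 30 h was -0.04, against 0.01 over all. Without animal 3 of the 30 h group the count was 5 of 10, joined by the second probe set of Dnajb1 and 1 of Hsp90ab1, both lower. With the Gapdh 3' to 5' difference of each array as a covariate, a fit added after the data were seen, no probe set on the array passed at 30 h. The covariate does not overlap between these groups, and interval and RNA integrity cannot be told apart there. Separation of all 3 animals of a group from the heart-beating donors, described for genes below, was common on the array. It held for 13.5% of all probe sets at 4 h, 28.7% at 16 h and 33.5% at 30 h. Of the 10, 1 was wholly higher and 4 wholly lower at 16 h, and 2 and 2 at 30 h. Between times it held for 32.5% of all from 4 to 16 h and 26.6% from 16 to 30 h.

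**Figure D1:**
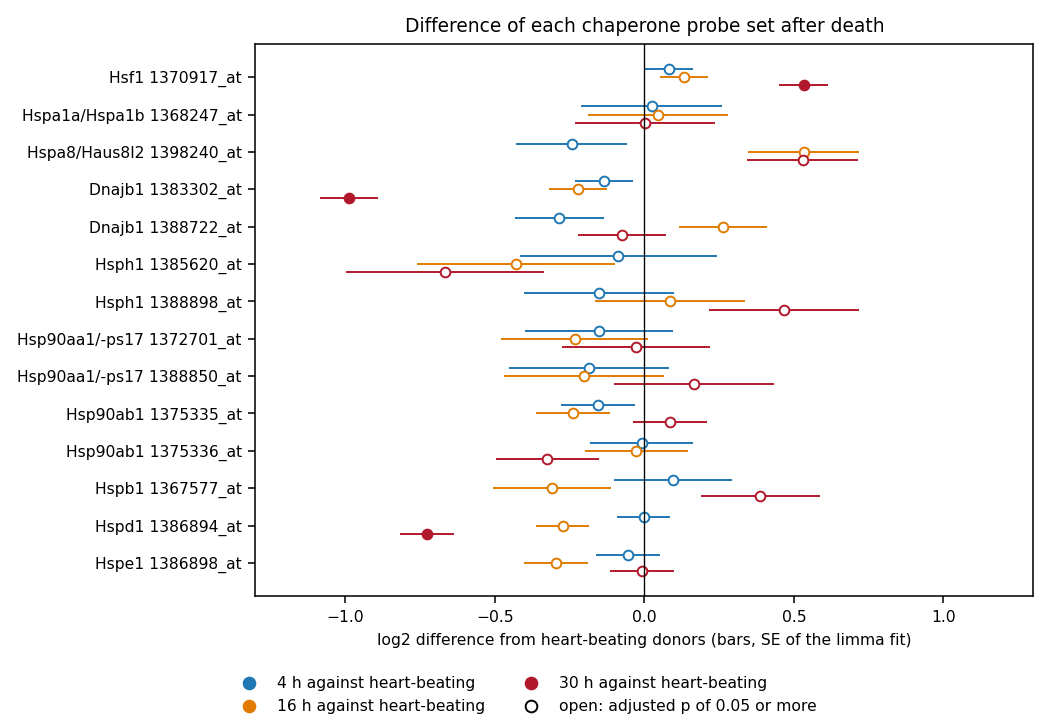
Log2 difference of each of the 14 chaperone probe sets from heart-beating donors at 4, 16 and 30 h (x axis), with bars for the standard error of the limma fit; filled points have an adjusted p under 0.05. The only filled points are those of Hsf1 (0.53), Dnajb1 1383302_at (-0.99) and Hspd1 (-0.73), all at 30 h.

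Hsf1, the master regulator of the heat shock response, had 1 probe set, with a signal before 30 h close to the array medians of 5.83 to 5.90. Its log2 signal was 6.10, 5.86 and 5.88 in the heart-beating donors, 6.01, 6.09 and 5.99 at 4 h, 6.06, 6.16 and 6.01 at 16 h, and 6.60, 6.39 and 6.45 at 30 h. The 30 h animals lay above all 9 others, whose groups overlapped each other. The rise at 30 h was 0.53 (SE 0.08, limma adjusted p = 0.000631), or 1.45-fold, and from 16 to 30 h it was 0.40 (SE 0.08, adjusted p = 0.00843). Both calls held without any single array.

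Among the cytosolic Hsp70 genes, the probe set annotated to both Hspa8 and Haus8l2 lay higher in every animal of the later times, and that annotated to both Hspa1a and Hspa1b did not. Hspa8 encodes the constitutive Hsc70, and in RefSeq the accession behind the first probe set belongs to Hspa8. It read 12.01, 11.81 and 11.89 in heart-beating donors, 11.88, 11.84 and 11.27 at 4 h, 12.35, 12.40 and 12.56 at 16 h, and 12.29, 12.11 and 12.89 at 30 h. Every 16 and 30 h value exceeded every heart-beating and 4 h value. The difference from heart-beating donors was 0.53 (SE 0.19) at both 16 h (adjusted p = 0.131) and 30 h (adjusted p = 0.0628), neither of which passed. From 4 to 16 h it rose by 0.78 (SE 0.19, adjusted p = 0.0224), or 1.71-fold, a call lost without animal 3 of the 4 h group (0.58) or without any 16 h animal (0.71 to 0.82). Leaving out 30 h animal 3 brought the 16 h difference past the threshold (adjusted p = 0.0465), and leaving out 4 h animal 3 or 30 h animal 2 did so for the 30 h difference (0.53 and 0.69). The 30 h difference also passed with cyclic loess, further quantile normalization or array weights (0.67 to 0.69) and over the upper 50% of probe sets by signal (adjusted p = 0.0472). The 16 h difference also passed with array weights, in a fit of those groups alone or without the 30 h arrays (limma adjusted p = 0.00805 to 0.042).

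Hspa1a and Hspa1b encode the stress-inducible Hsp70 and are near-identical copies, and 1 probe set is annotated to both. In RefSeq the record behind it belongs to Hspa1a, and how far this probe set reads Hspa1b was not tested. Its signal was 6.92, 7.44 and 6.82 in heart-beating donors, 7.24, 7.25 and 6.77 at 4 h, 7.16, 7.14 and 7.03 at 16 h, and 7.09, 6.49 and 7.62 at 30 h. Group means stayed between 7.06 and 7.11, while the 30 h animals alone spanned the widest range. The 30 h difference was 0.00 (SE 0.23, limma adjusted p = 0.996). Shifts well beyond that SE could also go uncalled with 3 arrays. The Hspa8 and Haus8l2 probe set, at 0.53 with a smaller SE of 0.19, did not pass at 30 h. A second probe set, annotated to Hspa1a alone, differed by -0.09 at 30 h (adjusted p = 0.794).

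Dnajb1, the J protein known as Hsp40 that stimulates the ATPase of Hsp70, was read by a pair of probe sets that disagreed. On 1383302_at the signal was 7.71, 7.85 and 7.92 in heart-beating donors, 7.68, 7.75 and 7.65 at 4 h, 7.75, 7.43 and 7.63 at 16 h, and 6.77, 6.73 and 7.03 at 30 h. The 30 h animals lay below all 9 others. The fall was 0.99 on the log2 scale (difference -0.99, SE 0.10, adjusted p = 2.89e-05), a level 1.98-fold lower, and -0.77 (SE 0.10, adjusted p = 0.0006) from 16 to 30 h. Both calls held without any single array.

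On the brighter Dnajb1 probe set, 1388722_at, the signal was 8.52, 8.34 and 8.33 in heart-beating donors, 8.16, 8.21 and 7.97 at 4 h, 8.77, 8.65 and 8.55 at 16 h, and 8.08, 8.12 and 8.76 at 30 h. The 16 h animals lay above the heart-beating and 4 h animals, and the 30 h group was split, with animal 3 high. The 30 h difference was -0.08 (SE 0.15, adjusted p = 0.782) with that animal and -0.30 (adjusted p = 0.0448) without it, and the step from 16 to 30 h without it was -0.56 (adjusted p = 0.00353). From 4 to 16 h this probe set rose by 0.55 (SE 0.15, adjusted p = 0.0398), or 1.46-fold. It was the only one of the 10 called in that comparison (background 7.82%, or 5.31% higher), and the call was lost without any 1 of the 4 h or 16 h animals or heart-beating donor 3 (0.48 to 0.60).

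Hsph1, the Hsp110 exchange factor of Hsp70, did not pass in any comparison on either probe set. On 1388898_at the signal was 9.06, 9.38 and 8.94 in heart-beating donors, 9.30, 9.21 and 8.43 at 4 h, 9.16, 9.02 and 9.47 at 16 h, and 9.11, 9.57 and 10.11 at 30 h. On 1385620_at it was 6.40, 6.74 and 6.39, then 6.80, 6.90 and 5.58, then 6.13, 5.74 and 6.38, and at 30 h 5.26, 5.84 and 6.44. Each group overlapped the heart-beating donors on the first, and the animals of 4 h and 30 h spread widely on both. The 30 h differences had opposite signs, 0.47 (SE 0.25, adjusted p = 0.229) and -0.67 (SE 0.33, adjusted p = 0.189).

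**Figure D2:**
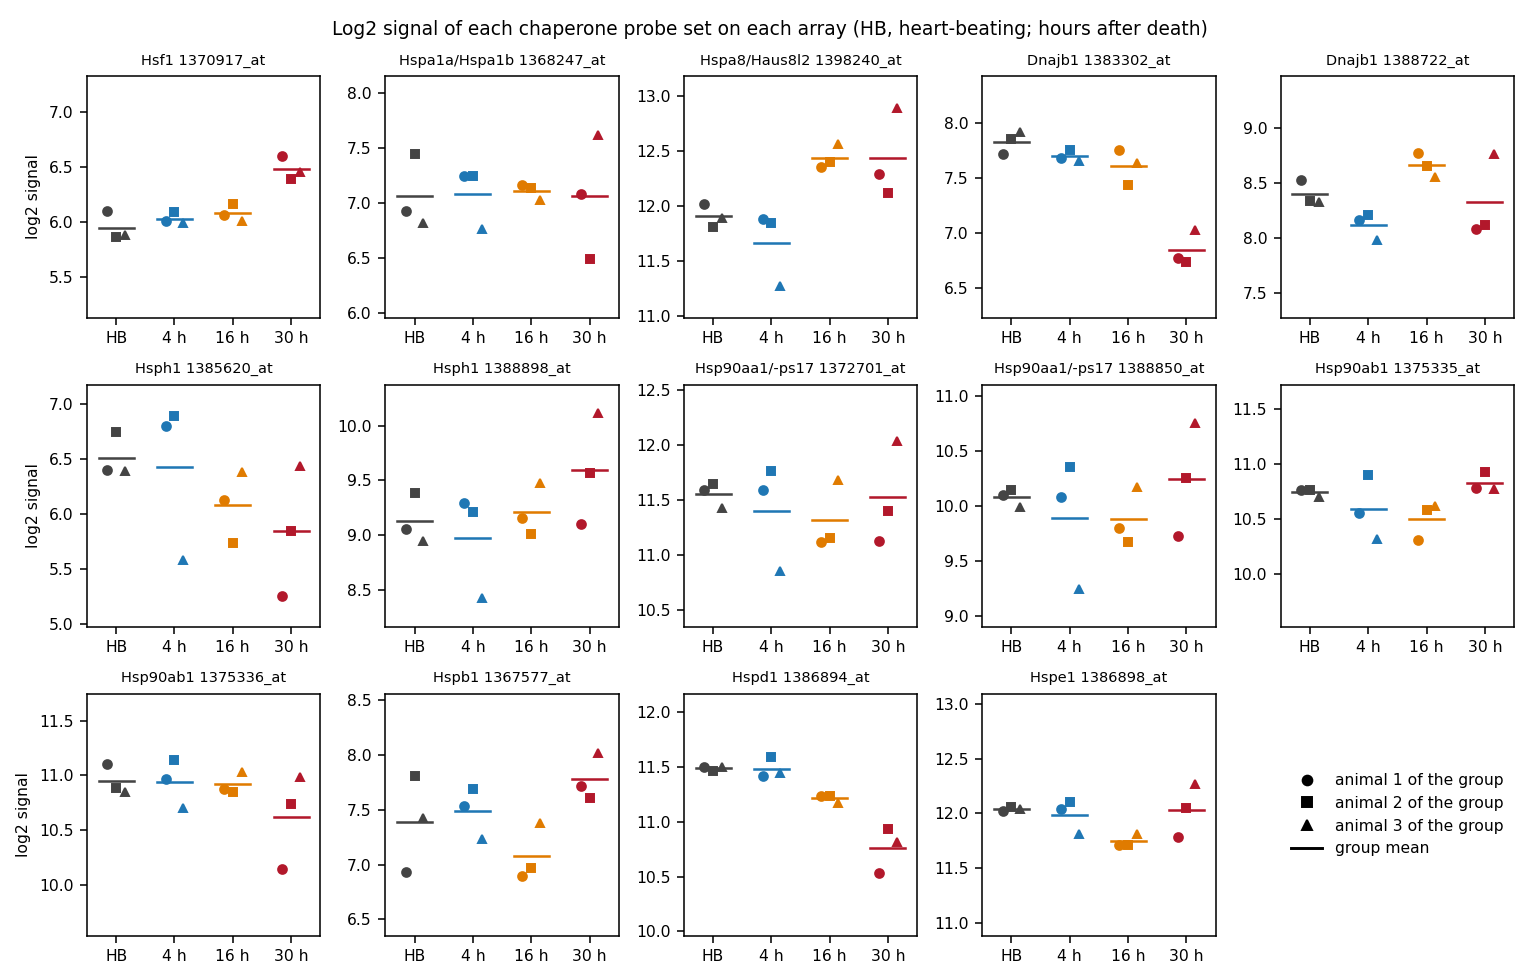
Log2 signal (y axis, each panel spanning the same number of log2 units) of the 14 chaperone probe sets on each of the 12 arrays, by group; symbols mark the animal number within a group and lines the group mean. Hsf1 sits at 6.39 to 6.60 at 30 h, above all other arrays, and Hspd1 at 10.53 to 10.93, below all others, while many cytosolic chaperones show 4 h animal 3 low and 30 h animal 3 high.

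The disagreement within genes was tested on the array-wise difference between the 2 brightest probe sets of a gene, fitted over 4525 genes in limma. At 30 h the brighter probe set moved up against the dimmer by 0.91 for Dnajb1 (SE 0.13, adjusted p = 2.01e-05) and 1.13 for Hsph1 (SE 0.12, adjusted p = 7.77e-07). Both already differed at 16 h, by 0.48 (adjusted p = 0.0181) and 0.51 (adjusted p = 0.00877), calls that were lost without 16 h animal 2, and for Dnajb1 also without heart-beating donor 2 or 3 (adjusted p up to 0.104). For Hsp90ab1 the difference went the other way, by -0.41 at 30 h (SE 0.15, adjusted p = 0.046). Leaving out any single array except 16 h animal 1 or 30 h animal 3 ended that call, with values from -0.62 to -0.19 over the 12 arrays. Such a change between probe sets of 1 gene was called in 35.0% of the 4525 genes at 30 h, 13.7% at 16 h and 0.0442% at 4 h. A ratio of this kind shows unequal change of the probe sets, and does not say which of them follows the gene.

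**Figure D3:**
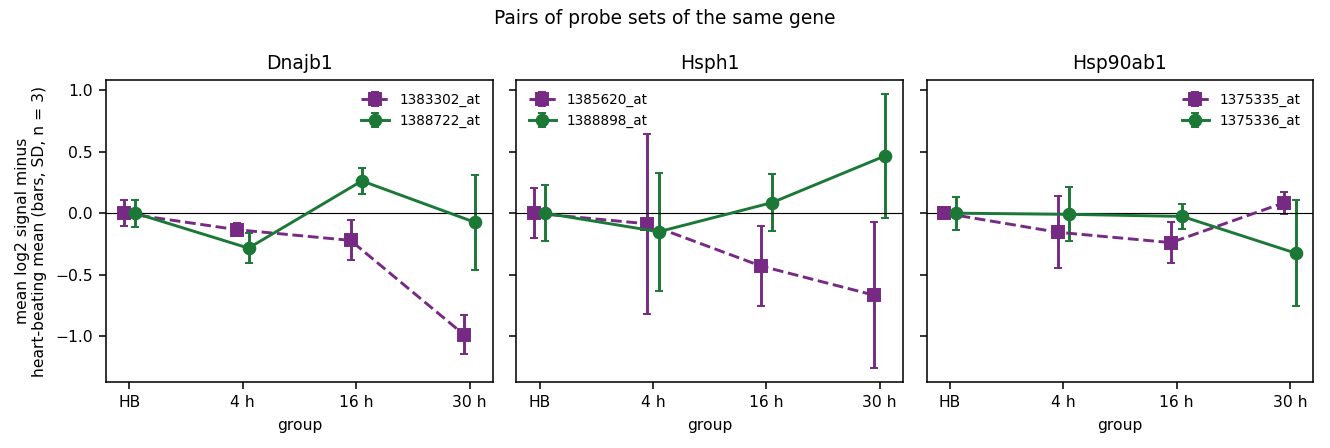
Mean log2 signal minus the heart-beating mean (y axis, bars SD, n = 3) in each group for the pairs of probe sets of Dnajb1, Hsph1 and Hsp90ab1. The probe sets of Dnajb1 stand at -0.99 and -0.08 at 30 h and those of Hsph1 at -0.67 and 0.47.

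Of the cytosolic Hsp90 genes, no probe set passed at 4, 16 or 30 h. Hsp90ab1, the constitutive form, read 10.76, 10.77 and 10.70 on 1375335_at in heart-beating donors, 10.55, 10.90 and 10.32 at 4 h, 10.31, 10.59 and 10.62 at 16 h, and 10.78, 10.93 and 10.77 at 30 h. The 16 h animals lay below and the 30 h animals above the heart-beating donors, by -0.24 and 0.09 on average (limma adjusted p = 0.318 and 0.692). Of all probe sets, 15.7% were wholly lower at 16 h and 16.9% wholly higher at 30 h. The step from 16 to 30 h passed with cyclic loess, further quantile normalization or without 4 h animal 2 (0.32 to 0.52). On 1375336_at it read 11.10, 10.89 and 10.85, then 10.97, 11.14 and 10.70, then 10.88, 10.85 and 11.03, and at 30 h 10.14, 10.74 and 10.98. The groups overlapped there, and the 30 h difference was -0.32 (SE 0.17, adjusted p = 0.222), or -0.50 (adjusted p = 0.0474) without animal 3.

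Hsp90aa1, the stress-inducible form, was read only together with the pseudogene Hsp90aa1-ps17. On 1372701_at the signal was 11.59, 11.64 and 11.42 in heart-beating donors, 11.59, 11.76 and 10.85 at 4 h, 11.12, 11.15 and 11.68 at 16 h, and 11.13, 11.40 and 12.04 at 30 h. On 1388850_at it was 10.10, 10.15 and 9.99, then 10.08, 10.36 and 9.25, then 9.80, 9.67 and 10.17, and at 30 h 9.73, 10.25 and 10.76. All groups overlapped the heart-beating donors on both probe sets. The 30 h differences were -0.03 (SE 0.25) and 0.17 (SE 0.27), and the spread among the 30 h animals exceeded either.

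Hspb1 encodes Hsp27, which holds unfolding proteins for Hsp70. Its signal was 6.94, 7.81 and 7.43 in heart-beating donors, 7.53, 7.69 and 7.23 at 4 h, 6.89, 6.97 and 7.38 at 16 h, and 7.71, 7.61 and 8.01 at 30 h. The heart-beating donors were themselves spread over most of this range, and the difference from them was -0.31 at 16 h (SE 0.20, adjusted p = 0.434) and 0.39 at 30 h (SE 0.20, adjusted p = 0.203). All 30 h values lay above all 16 h values, and the step between these times was 0.70 (SE 0.20, adjusted p = 0.0411), or 1.62-fold. It was lost without heart-beating donor 3, 4 h animal 1, 16 h animal 1 or 2, or 30 h animal 1 or 3 (0.58 to 0.73), and with median centring (0.67), and the 30 h difference from heart-beating donors passed without donor 2 (0.60, adjusted p = 0.049). From 16 to 30 h 4 of the 10 probe sets passed (background 10.2%), Hsf1 and Hspb1 higher (background 4.29%) and Dnajb1 1383302_at and Hspd1 lower (background 5.95%).

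Of the mitochondrial chaperonin genes, Hspd1 fell at 30 h and Hspe1 did not pass. Hspd1, the subunit of the folding chamber, read 11.50, 11.46 and 11.49 in heart-beating donors, 11.42, 11.59 and 11.44 at 4 h, 11.23, 11.24 and 11.17 at 16 h, and 10.53, 10.93 and 10.81 at 30 h. The 16 h animals lay below all heart-beating and 4 h animals, and the 30 h animals lower still. The difference from heart-beating donors was -0.27 at 16 h (SE 0.09, adjusted p = 0.107, or 0.0243 without 30 h animal 1) and -0.73 at 30 h (SE 0.09, adjusted p = 0.000147), where the level was 1.65-fold lower. The 16 h difference also passed with cyclic loess, array weights, a fit of those groups alone or no 30 h arrays (limma adjusted p = 0.0166 to 0.0237). From 16 to 30 h the log2 signal fell by 0.45 (SE 0.09, adjusted p = 0.00724). This call and that of 30 h against heart-beating donors held without any single array.

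Hspe1, the lid, read 12.03, 12.06 and 12.04 in heart-beating donors, 12.04, 12.11 and 11.81 at 4 h, 11.71, 11.71 and 11.82 at 16 h, and 11.79, 12.05 and 12.27 at 30 h. It was low in every 16 h animal, and the 30 h animals lay on both sides of the heart-beating donors. The difference was -0.30 at 16 h (SE 0.11, adjusted p = 0.146) and -0.01 at 30 h (SE 0.11, adjusted p = 0.971). At 16 h it passed with array weights, in a fit of those groups alone or without the 30 h arrays (limma adjusted p = 0.0212 to 0.0388). The step from 16 to 30 h was 0.29 (adjusted p = 0.109) and passed without 30 h animal 1 (0.41, adjusted p = 0.0204), as it did with cyclic loess, further quantile normalization or array weights (0.39 to 0.42). As the promoter windows of these genes hold the same matches, the difference of their log2 signals was also followed on each array. Hspd1 minus Hspe1 was -0.53, -0.60 and -0.55 in heart-beating donors, -0.62, -0.52 and -0.37 at 4 h, -0.48, -0.48 and -0.65 at 16 h, and -1.25, -1.12 and -1.45 at 30 h. The mean moved by 0.05 at 4 h (exact two-sided permutation p = 0.6) and 0.02 at 16 h (p = 0.8 by the same exact test). At 30 h it moved by -0.72 (exact p = 0.1, the smallest that 3 against 3 allows). Only the 30 h animals all lay on 1 side of the heart-beating donors, while those of 4 and 16 h lay on both sides. How often probe sets of different genes part in this way was not counted. Between probe sets of 1 gene, a change was called in 35.0% of 4525 genes at 30 h. The Gapdh 3' to 5' difference was also highest at 30 h (1.97 ± 0.29, SD), and its part in this split was not tested.

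The chaperones varied more from animal to animal than most probe sets of the array, which were not matched to them in signal. Over the 14 probe sets the median SD was 0.11 in the heart-beating group against 0.08 over all probe sets. The same pair of values was 0.25 and 0.08 at 4 h, 0.14 and 0.08 at 16 h, and 0.40 and 0.12 at 30 h. The number of the 14 above the 90th percentile of all SDs was 4 with a beating heart, and then 9, 5 and 8 in order of time. Each of the 14 had a heart-beating mean above 5.87, the median of the mean signals of all probe sets. Whether probe sets of equal signal varied as much was not tested. The spread of the 14 had the same animals at its ends. Animal 3 of the 4 h group was the lowest of its group in 13 of the 14 (median deviation -0.26), where 31.1% of all probe sets were lowest in it. Animal 2 of that group was the highest in 12, where 32.1% of all were highest in it. Animal 3 of the 30 h group was the highest in 11 of the 14 (median deviation 0.40), where 30.0% of all probe sets were highest in it. Animal 1 of that group was the lowest in 8, where 34.7% of all were lowest in it. Over all probe sets the median deviation of every array was within 0.01 of 0, on values already normalized to a common distribution. The Gapdh 3' to 5' difference was 0.46, 0.27 and 0.42 in 4 h animals 1 to 3 and 2.30, 1.82 and 1.79 in the 30 h animals, and its part in this spread was not tested. The probe sets share arrays and several share a gene, so these counts describe animals and are no test.

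**Figure D4:**
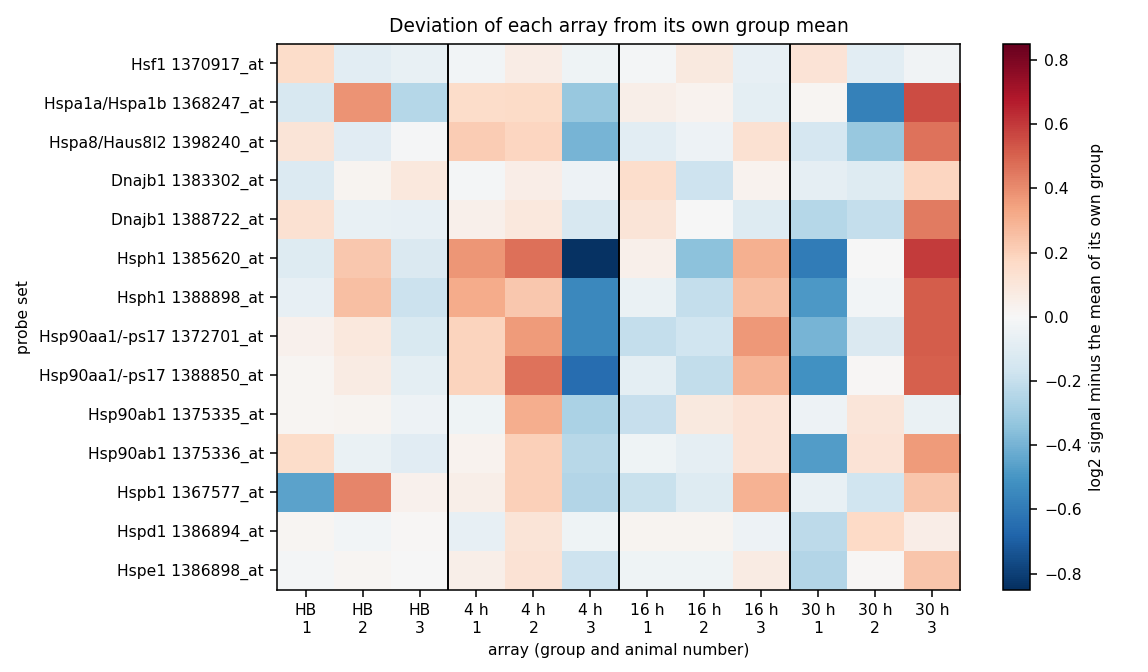
Log2 signal of each chaperone probe set on each array minus the mean of that array's own group (colour, red higher and blue lower). Animal 3 of the 4 h group is the lowest of its group in 13 of 14 rows and animal 3 of the 30 h group the highest in 11.

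The genes whose brightest probe sets followed the chaperones most closely over the 12 arrays, among those in the upper 50% by mean signal, were found by Pearson correlation, given here as a description. Hspd1 was followed by Tmem14c and Micos13 (r = 0.99 for both) and Gpx4 (r = 0.98). The Hspa8 and Haus8l2 probe set was followed by Traf4 (0.95), Ammecr1l (0.92) and the endoplasmic reticulum Hsp90 gene Hsp90b1 (0.90). The Hsp90aa1 probe set 1372701_at was followed by Chordc1, an Hsp90 cochaperone (0.88), by Dnajb11, a J protein of the endoplasmic reticulum (0.86), and by Vma21 (0.86). The Hspa1a and Hspa1b probe set was followed by that of Hspa1a alone (0.84), Mesp1 (0.80) and Zbtb8a (0.78). The arrays share 1 normalization, and both the interval and the animal enter these values.

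Around these members, 9 lists of other chaperone genes and cofactors held 83 genes, of which 80 were measured, each by its brightest probe set. None passed at 4 h in limma (all genes 0.00703%). At 16 h 3 passed: the Hsp70 cochaperone Bag6 was higher (0.60, SE 0.09, adjusted p = 0.00285), and Hspa4l, of the Hsp110 family, and Clpx, the unfoldase of the mitochondrial Clp protease, were lower (-0.55, SE 0.12, adjusted p = 0.0169, and -0.98, SE 0.09, adjusted p = 0.000181). The background at 16 h was 4.3% of genes higher and 1.3% lower. Without 30 h animal 1 the number of lower genes at 16 h was 4, and it was 1 without heart-beating donor 2 or 16 h animal 2. At 30 h 11 were higher (13.8%, all genes 12.5%) and 18 lower (22.5%, all genes 10.5%), with a median of -0.05 against 0.01 over all genes, and 7 were higher without heart-beating donor 3.

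By role, the largest number of falls at 30 h came from the largest list, the other mitochondrial chaperones and proteases. There 7 of 15 fell and 1 rose, with a list median of -0.30. The shares of all genes at 30 h, 12.5% higher and 10.5% lower, are the background for every list here and in the next paragraph. With the Gapdh 3' to 5' covariate no gene of these lists passed at 30 h. Yme1l1, a protease of the inner membrane, had a log2 difference of -0.65 (SE 0.08, adjusted p = 0.000167), and Dnajc19, a J protein of the import motor, fell by 0.63 (SE 0.11, adjusted p = 0.00152). Among the other cytosolic J proteins 5 of 13 rose and 3 fell, with Dnajb2 at 0.54 (SE 0.09, adjusted p = 0.00124) and Dnajc2, bound to the ribosome, at 0.46 (SE 0.08, adjusted p = 0.00218). Of the 10 Hsp70 cochaperones 2 rose and 2 fell: Bag6 stood at 0.81 (SE 0.09, adjusted p = 4.94e-05) and St13, the Hsp70-interacting protein Hip, at -1.49 (SE 0.18, adjusted p = 0.00013). Of 9 other Hsp70 and Hsp110 genes 1 rose and 2 fell, Hspa4l by 0.51 (SE 0.12, adjusted p = 0.00747) and Hspa13, a member of the endoplasmic reticulum, by 0.38 (SE 0.09, adjusted p = 0.00845).

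Hsbp1, which binds Hsf1 and restrains it, was the only one of 3 other heat shock regulators to pass at 30 h. It stood at -0.77 (SE 0.12, limma adjusted p = 0.00061), where 10.5% of all genes were lower. Hsf1 itself was higher at the same time, and a link between these transcripts was not tested. Unc45a, which assists the folding of myosin, was the only one of 10 Hsp90 cochaperones to pass, at 0.40 (SE 0.07, adjusted p = 0.00197). Among the 8 subunits of TRiC, the cytosolic chaperonin for actin and tubulin, Cct4 was lower (-0.54, SE 0.13, adjusted p = 0.0105) and Cct7 higher (0.31, SE 0.09, adjusted p = 0.0328). Prefoldin, which hands substrates to TRiC, had 2 of 5 subunits lower, Pfdn5 at -0.83 (SE 0.10, adjusted p = 0.00011) and Pfdn1 at -0.33 (SE 0.09, adjusted p = 0.0184). None of 7 other small heat shock proteins passed at 30 h.

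**Figure D5:**
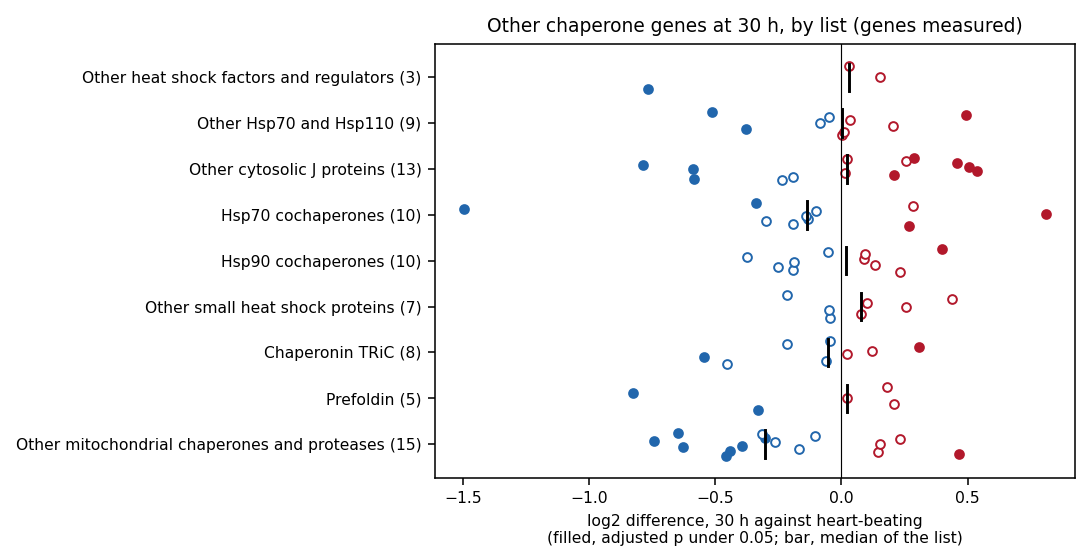
Log2 difference between 30 h and heart-beating donors (x axis) for the 80 other chaperone genes in 9 lists; filled points have an adjusted p under 0.05 and bars are list medians. The mitochondrial list has its median at -0.30 and St13 is the lowest point at -1.49.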

How the data were processed

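The value deposited by the authors for each probe set is a log2 signal, made with RMA and used with limma, per the submitters' processing notes; their versions were not given in the sources used here. RMA, which normalizes arrays to a common distribution, makes each value relative to the rest of its array, so a loss common to all transcripts leaves no trace. Here, 57 control probe sets were set aside and 1 mean per group was fitted to 31042 probe sets on 12 arrays with limma 3.58.1 in R 4.3.3 (8 residual and 4.93 prior degrees of freedom, no filter). A probe set was called at a Benjamini-Hochberg adjusted p under 0.05. Arrays have no count depth: 3 per group limit the precision. The labels call them biological replicates of different animals.

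Symbols came from the platform annotation: 20826 probe sets had 1, 436 several and 9780 none. Of the first, 20758 had a gene ID in RefSeq GRCr8. Other genes were represented by the brightest probe set (14217 genes). The text names every member, up to 2 called genes per list and comparison with heart-beating donors (smallest p), and the 3 genes most like each of 4 member probe sets. Hspa4 and other called list genes are only counted. The members and lists were chosen with earlier results of these data known.

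On simulated data with 31042 probe sets, of which 100 moved by 0.5 and 100 by 1, the test found 62 and 97 at 30 h, with 9 false calls. Those moved were drawn from all probe sets, each with the same spread in every group. Recovery for the more variable chaperones was therefore not measured. Animals with the same number in different groups deviated together (r over 0.1) in 2 of 18 pairs (r = -0.27 to 0.11), so numbers were not treated as pairs. Alternatives covered normalization, a filter, the summary per gene, the variance model, array weights, the samples fitted, a replicate block and the omission of each array in turn. A Gapdh 3' to 5' covariate, a fit without 30 h arrays, the test between probe sets and the Hspd1 minus Hspe1 test were added after the data were seen.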

Additional observations from a re-analysis of the deposited data

Results flagged for a closer look

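Of the 10 chaperone probe sets with 1 symbol, 5 differed in 1 comparison each, and so did 1 of the 4 that share a symbol, between times after death, in limma's test of the times themselves, that is, of 30 h against 16 h or 16 h against 4 h. From 16 to 30 h, where 10.2% of all probe sets were called, the difference was 0.40 for Hsf1, -0.77 for Dnajb1 1383302_at, 0.70 for Hspb1 and -0.45 for Hspd1, with adjusted p of 0.00843, 0.0006, 0.0411 and 0.00724. From 4 to 16 h, where 7.82% were called, it was 0.78 for the probe set annotated to Hspa8 and Haus8l2 (adjusted p = 0.0224) and 0.55 for Dnajb1 1388722_at (adjusted p = 0.0398).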

How the results depend on the processing

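Over 24 alternatives, 1688 of 1783 recomputed member differences, those between probe sets included, kept their status as called or not called. Most of the 1688 were not called in either fit, so their share does not measure how well calls held. They include 116 that changed sign with neither fit called. Of the others, 53 lost a call, 40 gained one and 2 reversed: with the Gapdh covariate the 30 h difference of Hspd1 was 0.0149 (adjusted p = 0.987) and that between the Hsp90ab1 probe sets 1.04 (adjusted p = 0.291). Among the fits that held these probe sets, the calls of Hsf1, Dnajb1 1383302_at and Hspd1 at 30 h were lost only under this covariate (0.08, -0.25 and 0.0149). The fit of the brightest probe set per gene leaves out Dnajb1 1383302_at. There Dnajb1 is read by 1388722_at, which did not pass at 30 h. With the mean of its probe sets Dnajb1 stood at -0.53 at 30 h (limma adjusted p = 0.00552). The cause of the changes below was not tested.

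Member calls at 16 h against heart-beating donors were 0, but 1 with cyclic loess, 3 with array weights and 2 in a fit of those groups alone or without the 30 h arrays. The 3 at 30 h became 0 with the covariate, as did the 4 from 16 to 30 h. The 1 from 4 to 16 h (Dnajb1 1388722_at) became 0 with the mean of probe sets, the replicate block (adjusted p = 0.069) or the covariate, and 2 with array weights, only those groups, or no 30 h arrays. With cyclic loess or further quantile normalization the count stayed at 1, but Dnajb1 1388722_at lost its call (adjusted p = 0.0709 and 0.093) and Hspd1 gained one (0.00863 and 0.0361). The replicate block changed no other member call, and it also ended the call between the Hsp90ab1 probe sets (adjusted p = 0.0509). Leaving out 1 array gave 0 to 0 calls at 4 h, 0 to 1 at 16 h, 3 to 5 at 30 h, 0 to 2 from 4 to 16 h and 3 to 5 from 16 to 30 h.

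Calls over all probe sets at 4 h (7) became 4 with cyclic loess, quantile normalization or the upper 50%, 1 with the brightest probe set or only those groups, 2 with the mean of probe sets or the replicate block, 3 with a variance trend and 18 with array weights (1 to 11 without 1 array). At 16 h (1449) they became 845 with the brightest, 580 with the mean, 3628 with weights, 70 with the covariate and 2505 without 30 h (448 to 2157 without 1 array). At 30 h (6130) they became 3318, 3008 and, with the covariate, 0 (4202 to 6045). From 4 to 16 h (2428) the brightest gave 1511, the mean 1186, weights 4098, the covariate 1302 and no 30 h arrays 3720 (1081 to 3256). From 16 to 30 h (3180) the brightest gave 1821, the mean 1754, only those groups 1679 and the covariate 8 (1265 to 4138). The first 2 alternatives test fewer features.

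Of the other chaperone genes, 1 higher at 16 h became 0 with the mean or covariate and 4 with weights (1 to 1 without 1 array). The 2 lower became 1 with the upper 50%, 6 with weights, 7 with only those groups, 0 with the covariate and 4 without 30 h (1 to 4). At 30 h 11 higher became 6 with only those groups and 0 with the covariate (7 to 13), and 18 lower became 0 with it (13 to 20).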
